A study of Mus musculus with 6 samples.

Results

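The genes described here are 10 classic targets of YAP and its TEAD partners, *Ctgf*, *Cyr61*, *Ankrd1*, *Amot*, *Amotl1*, *Amotl2*, *Ajuba*, *Axl*, *Nuak2* and *Ptpn14*. They were taken by symbol, and all 10 had a locus of their own, with no second gene in it, among the 24402 loci of the deposited table. RNA came from lungs of mouse embryos (C57BL/6) at 12.5 *dpc*, in a control and a *Yap* mutant group. Control embryos were wild type (3 libraries). *Yap* mutants carried Yap-flox/flox; Shh-Cre/+ (3 libraries), in which Cre recombinase made from the *Shh* locus deletes floxed *Yap* in the lung epithelium and not in the mesenchyme. The Cre insertion also takes the place of 1 *Shh* copy, and the wild type controls are not labelled as carrying Cre. Each locus has 1 FPKM value per genotype (fragments per kilobase of transcript, scaled to the number of mapped fragments), which the authors summarised over the libraries. No value per library was used here, so the error of a single value is unknown, no test could be made, and whether a difference exceeds the spread between libraries was not tested. In what follows, a difference is the log2 ratio of *Yap* mutant over control after 0.1 FPKM was added to each value.

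The Hippo kinases LATS1 and LATS2 phosphorylate YAP and so hold it in the cytoplasm. TEAD proteins supply the contact with DNA, through a short word that they recognise near genes, and YAP bound to them raises transcription. Among its best known targets are secreted matrix proteins, a receptor tyrosine kinase, and a group of junctional and cytoskeletal proteins. Some of this group restrain YAP in turn and so form a negative feedback. In the embryonic lung, YAP is needed for the epithelium to branch.

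The TEAD word GGAATG was present in most of the members' promoters. RefSeq start sites on GRCm38 (the build of mm10) were given for 8 of the 10 members, all but *Ctgf* and *Nuak2*, and in each case the 250 bases before the start were searched on both strands. The word, or its reverse complement CATTCC, occurred in 6 of these 8 windows, against 12.6% of all 32851 windows and 10.8% of the 12696 windows of genes with a mean of at least 1 FPKM. *Ajuba* and *Ankrd1* held 2 copies each, and *Cyr61*, *Amotl2*, *Axl* and *Ptpn14* held 1 copy each. *Amot* and *Amotl1* held 0 copies. An AP-1 word, TGANTCA, was found in 0 of the 8 windows and in 6.75% of all windows. These are matches of letters, not binding sites, and the genes are known as TEAD targets, so the share is a description.

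The whole windows of *Cyr61* and *Ajuba* are shown because these members had the largest differences among those lower in the mutants that have a window. Capitals mark the TEAD word, and each sequence is written 5′ to 3′ on the gene's strand, which is the minus strand for both. The *Cyr61* window lies on chromosome 3 from 145649986 to 145650235, and its word begins 103 bases before the start site. The *Ajuba* window lies on chromosome 14 from 54577662 to 54577911, with words that begin 186 and 164 bases before the RefSeq start at 54577661. In GENCODE the *Ajuba* gene starts at 54577558 instead, so these distances hold for the RefSeq start only.
*Cyr61*: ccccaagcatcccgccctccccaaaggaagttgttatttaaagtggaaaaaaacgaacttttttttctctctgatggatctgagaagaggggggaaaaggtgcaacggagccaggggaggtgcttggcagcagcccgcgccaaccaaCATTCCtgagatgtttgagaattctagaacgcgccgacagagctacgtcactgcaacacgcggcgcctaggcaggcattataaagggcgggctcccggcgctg
*Ajuba*: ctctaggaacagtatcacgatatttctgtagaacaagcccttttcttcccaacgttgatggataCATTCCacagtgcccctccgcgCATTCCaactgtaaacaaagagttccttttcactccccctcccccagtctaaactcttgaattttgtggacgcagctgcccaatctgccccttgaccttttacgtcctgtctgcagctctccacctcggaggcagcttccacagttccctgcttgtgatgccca

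For the other members with a word, 30 bases centred on it are shown so that the flanks can be compared. The *Amotl2* stretch lies on chromosome 9 from 102717727 to 102717756 (plus strand), inside an exon of 2 GENCODE transcripts. The *Ptpn14* stretch lies on chromosome 1 from 189728110 to 189728139 (plus strand). The *Axl* stretch lies on chromosome 7 from 25788949 to 25788978 (minus strand). The *Ankrd1* stretches lie on chromosome 19 (minus strand), the first from 36120037 to 36120066 and the second from 36119950 to 36119979, both inside an exon of 1 GENCODE transcript.
*Amotl2*: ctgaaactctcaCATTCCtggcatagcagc
*Ptpn14*: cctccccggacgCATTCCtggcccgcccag
*Axl*: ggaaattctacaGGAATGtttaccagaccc
*Ankrd1* first: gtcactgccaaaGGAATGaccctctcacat
*Ankrd1* second: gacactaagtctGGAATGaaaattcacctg

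**Figure D1:**
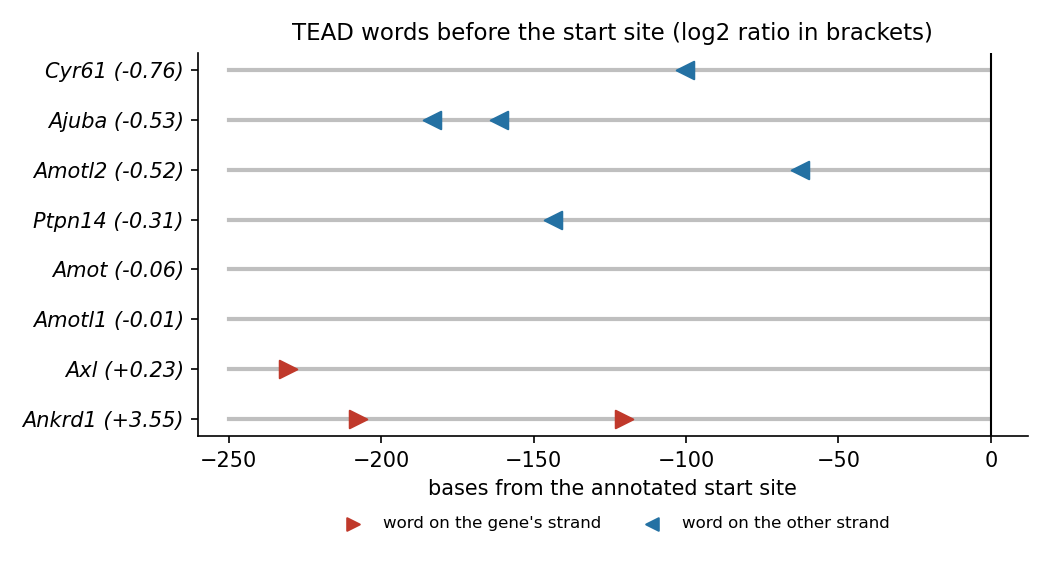
Position of the TEAD word in the 250 bases before the annotated start site of the 8 members with a window, ordered by log2 ratio (in brackets, *Yap* mutant over control). The x axis is the distance from the start in bases, and arrowheads point right for GGAATG on the gene's strand and left for the reverse complement. The windows of *Amot* and *Amotl1* are empty, and the other 6 hold 8 words in all.

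The *Amot* start site used lies 18065 bases inside the 5′ end of the measured locus. Those of *Amotl1*, *Amotl2* and *Axl* lie 290, 388 and 111 bases inside theirs. The *Amotl1* gene is annotated to begin farther out, at 14662974 in RefSeq and 14645056 in GENCODE, against 14615000 for the start site used. For *Amotl2* these positions are 102717091 and 102716672, against 102717804. An empty window therefore says only that these letters are not there.

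The libraries checked as lung. All 22 loci of an epithelial marker list (among its highest in control were *Cldn6*, *Etv5* and *Spint2*) and all 13 loci of a mesenchymal list (*Col3a1*, *Col1a2*, *Vim*) had at least 1 FPKM in both groups. *Yap1*, the deleted gene, measured 76.1 FPKM in controls against 65.6 FPKM in mutants. This value covers the whole locus and includes the mesenchyme, so it does not show by itself that the floxed part was removed. The median log2 ratio was -0.60 for epithelium, -1.06 for smooth muscle (*Acta2*, *Actg2*, *Tagln*) and 3.05 for cardiac muscle (*Myl7*, *Actc1*, *Myl4*). It was 0.06 for mesenchyme, 0.31 for mesothelium (*Upk3b*, *Wt1*, *Lrrn4*), 0.16 for endothelium (*Cldn5*, *Cdh5*, *Pecam1*) and 0.15 for erythroid cells (*Hbb-y*, *Hba-x*, *Hbb-bh1*). It was -0.03 for skeletal muscle (*Mylpf*, *Acta1*, *Myog*) and 1.74 for 4 liver genes, of which *Afp*, *Alb* and *Apoa1* were highest in control. The median over all 12716 loci that averaged 1 FPKM or more over both groups was -0.01.

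Of the 10 targets, 8 had a lower and 2 a higher value in *Yap* mutant than in control lungs, while 51.8% of the 12716 loci were lower and 48.2% were higher. The value of *Amotl1* was all but equal and turned to a log2 ratio of 0.03 when both groups were set to the same sum of FPKM. The differences were mostly modest. *Nuak2* and *Cyr61* were lower by at least 1.5-fold, *Ankrd1* was higher by that much, and the other 7 lay within 1.5-fold. *Nuak2* had a mean under 1 FPKM, and among the 9 members above that level 1 was lower and 1 was higher by at least 1.5-fold, beside 3.30% and 4.44% of all loci. With a smaller fold (at least 20% lower or 25% higher), 4 of these 9 were lower (*Cyr61*, *Ajuba*, *Amotl2* and *Ctgf*) and 1 was higher, beside 6.80% and 9.63% of all loci. At 2-fold, 0 were lower and 1 was higher, beside 1.28% and 2.15%. The median log2 ratio of the 9 members was -0.31, and of all 10 it was -0.35.

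Both genotypes cover a wide range of levels. In control lungs the order from high to low was *Ajuba*, *Amotl1*, *Axl*, *Amotl2*, *Amot*, *Cyr61*, *Ptpn14*, *Ctgf*, *Ankrd1* and *Nuak2*. FPKM is scaled by transcript length, so these levels can be set side by side, although without values per library it is unknown which neighbours in the order differ. *Ajuba*, the highest, exceeded 75.5% of the 12716 loci in control, and *Nuak2*, the lowest, exceeded 5.69%. In *Yap* mutant lungs *Axl* was first and *Nuak2* again last, and *Ankrd1* moved from rank 9 to rank 4.

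**Figure D2:**
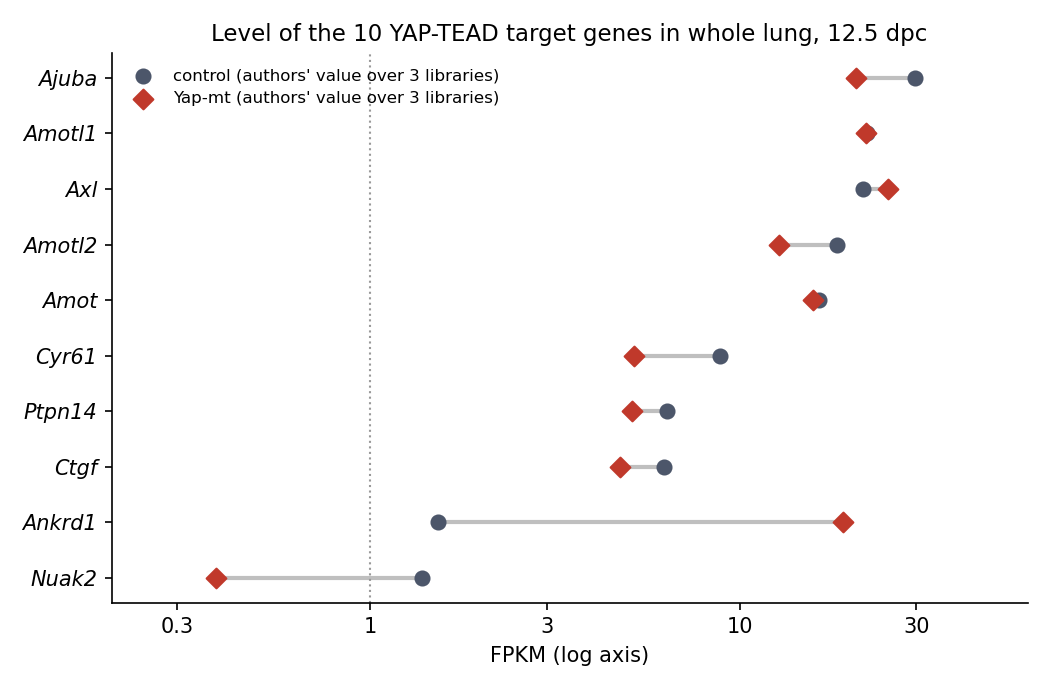
FPKM of each member in control (circles) and *Yap* mutant (diamonds) lungs on a log axis, ordered by the control value. Each point is the authors' single value over 3 libraries, with no error bar because no value per library was used, and the dotted line marks 1 FPKM. *Ankrd1* moves from 1.53 to 19.0 FPKM, *Nuak2* from 1.38 to 0.384 FPKM, and *Amotl1* hardly at all.

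Because small values give less precise ratios, each member was also read beside the loci of like level, those with a control FPKM between 0.5 and 2 times its own. For a member lower in the mutants, the share of these loci with a log2 ratio at or below its own is given, and for a member higher in the mutants, the share at or above it. These shares describe the table and are not p-values.

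**Figure D3:**
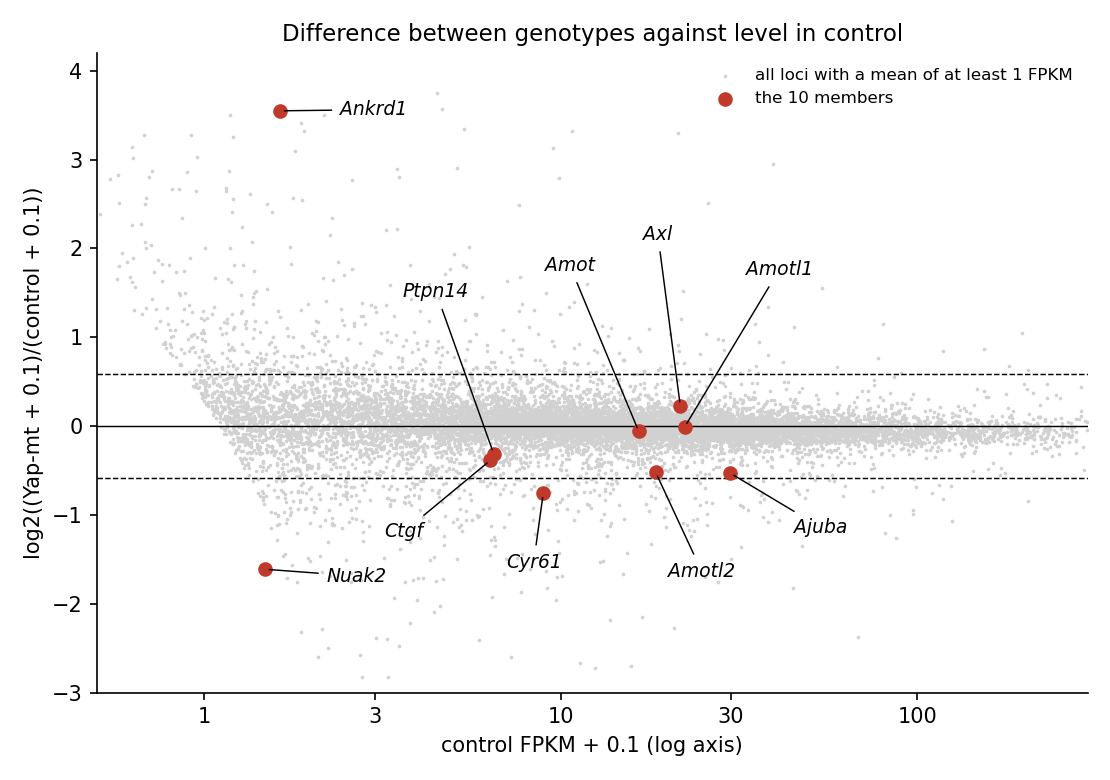
Log2 ratio of *Yap* mutant over control (y axis, 0.1 FPKM added) against control FPKM plus 0.1 (x axis, log) for loci averaging 1 FPKM or more (grey) and the 10 members (red). Dashed lines mark 1.5-fold, 12431 of the 12716 loci fall inside the axes, and *Nuak2* is drawn although its mean is under 1 FPKM. *Ankrd1* is the highest point near its control level, with other loci close below it, *Cyr61* and *Nuak2* lie under the lower dashed line, and *Ajuba* and *Amotl2* lie just above it.

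The secreted CCN proteins were both lower in *Yap* mutants. *Cyr61*, which encodes a matricellular protein that binds integrins, lies on chromosome 3 from 145646971 to 145649985. It measured 8.82 FPKM in controls against 5.18 FPKM in mutants, 41.3% less, with a log2 ratio of -0.76. Of 4710 loci of like level, 2.02% had as low a ratio. *Ctgf*, encoding connective tissue growth factor of the same family, lies on chromosome 10 from 24595442 to 24598682. It measured 6.24 FPKM in controls against 4.75 FPKM in mutants, 23.8% less, with a log2 ratio of -0.39. Of 4085 loci of like level, 6.90% had as low a ratio. Summed, these genes reached 15.1 FPKM in controls and 9.93 FPKM in mutants. Of the other CCN genes, *Nov* was higher in the mutants, at 0.467 and 1.14 FPKM in control and mutant (log2 ratio 1.13), with a mean under 1 FPKM. *Wisp1* was close to equal, at 11.3 and 11.7 FPKM. *Wisp3*, at 0.381 and 0.361 FPKM, and *Wisp2*, at 0.0750 and 0.0742 FPKM, were low.

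The receptor tyrosine kinase gene *Axl* was slightly higher in the mutants, and so were the ligand genes of its receptor family. *Axl* lies on chromosome 7 from 25756500 to 25788844 and measured 21.5 FPKM in controls against 25.2 FPKM in mutants, a log2 ratio of 0.23. Of 4924 loci of like level, 5.73% had as high a ratio. Among its relatives, the receptor gene *Tyro3* was lower, at 20.1 and 14.4 FPKM (log2 ratio -0.48), and *Mertk* had 1.94 and 2.05 FPKM (0.08). The ligand genes of this receptor family, *Gas6*, at 10.9 and 13.9 FPKM, and *Pros1*, at 16.4 and 20.3 FPKM, had log2 ratios of 0.34 and 0.31. None of these 4 relatives reached 1.5-fold.

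*Ankrd1*, encoding an ankyrin repeat protein of heart and other striated muscle, had by far the largest difference, and it was opposite to that of the CCN genes. It lies on chromosome 19 from 36111965 to 36119844. It measured 1.53 FPKM in controls against 19.0 FPKM in mutants, 12.4 times as much, with a log2 ratio of 3.55. Of 2563 loci of like control level, 0 had as high a ratio, and of 5045 loci of like mean level (a comparison added after the values were seen) 7 did. The loci of like control level nearest in log2 ratio, also named after their values were seen, were the striated muscle genes *Myl1* and *Mybpc3*, at 3.499 and 3.498. The surfactant gene *Sftpa1*, of like control level and named in the same way, had 1.76 and 19.7 FPKM, a log2 ratio of 3.41.

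Heart muscle markers moved with *Ankrd1*. All 12 loci of the cardiac muscle list were higher in *Yap* mutants. Of these, 10 had a mean of at least 1 FPKM and were each higher by at least 2-fold, with log2 ratios from 1.34 to 6.41. At 2-fold, 2.15% of all loci were higher. The summed level of the cardiac list was 121.0 FPKM in controls against 888.0 FPKM in mutants, and 0 of the markers were at 0 in either group. The atrial myosin light chain gene *Myl7*, for example, had 39.3 and 305.9 FPKM. The skeletal muscle list summed to 10.01 and 9.94 FPKM. Of the other muscle ankyrin repeat genes, *Ankrd2* had 0.0597 and 0.0287 FPKM, and *Ankrd23*, which shares its locus with *Ankrd39*, had 5.70 and 5.85 FPKM. The part of cardiac muscle in the *Ankrd1* value was not tested.

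The 3 angiomotin genes, whose products sit at cell junctions and hold YAP in the cytoplasm, did not move together. *Amotl2*, on chromosome 9 from 102717416 to 102733417, measured 18.3 FPKM in controls against 12.8 FPKM in mutants, 30.4% less, with a log2 ratio of -0.52. Of 5082 loci of like level, 2.58% had as low a ratio. *Amot*, on chromosome X from 145446414 to 145505704, had 16.4 and 15.8 FPKM, a log2 ratio of -0.06, and 36.5% of 5134 loci of like level had as low a ratio. *Amotl1*, on chromosome 9 from 14541967 to 14615290, had 22.1 and 22.0 FPKM, a log2 ratio of -0.01, and 55.1% of 4896 loci of like level had as low a ratio. *Amotl2* was the angiomotin gene whose values lay apart by more than 0.1 on the log2 scale. Summed over the family, the level was 56.9 FPKM in control and 50.5 FPKM in the mutants.

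*Amot* is X-linked, and the groups differed in sex-linked genes. *Xist*, which is transcribed from the inactive X of females, measured 97.0 FPKM in controls against 50.4 FPKM in mutants. The Y-linked genes *Kdm5d* and *Uty* had 4.61 and 5.11 FPKM in the mutants, and both stood at 0 in control. *Ddx3y* had 0.0163 and 10.2 FPKM, and *Eif2s3y* had 0.0143 and 16.5 FPKM. The part of embryo sex in the *Amot* value, or in that of any other member, was not tested.

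*Ajuba* was the most abundant target in control lungs and was lower in the mutants. Its product is a LIM protein of adherens junctions that binds and restrains the LATS kinases. It lies on chromosome 14 from 54567469 to 54577661 and measured 29.8 FPKM in controls against 20.6 FPKM in mutants, 30.9% less, with a log2 ratio of -0.53. Of 4342 loci of like level, 2.004% had as low a ratio. The related LIM genes were lower by less: *Wtip* had 40.8 and 34.0 FPKM (-0.26), and *Limd1* had 25.7 and 23.4 FPKM (-0.14).

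*Ptpn14*, encoding a tyrosine phosphatase that binds YAP and keeps it out of the nucleus, was lower by a smaller amount than its relative. It lies on chromosome 1 from 189728268 to 189876693 and measured 6.37 FPKM in controls against 5.12 FPKM in mutants, 19.6% less, with a log2 ratio of -0.31. Of 4130 loci of like level, 8.45% had as low a ratio. *Ptpn21*, the closest relative, had 6.23 and 3.95 FPKM, a log2 ratio of -0.64.

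*Nuak2*, a kinase gene of the AMPK-related family, was the member with the largest decrease and the lowest level. It lies on chromosome 1 from 132316125 to 132333488 and measured 1.38 FPKM in controls against 0.384 FPKM in mutants, 72.2% less. Its log2 ratio was -1.61 with 0.1 FPKM added, -1.84 with nothing added and -0.78 with 1 FPKM added, since added values weigh on a low gene. Of 2583 loci of like level, 1.86% had as low a ratio. Its paralog *Nuak1* was also lower, at 9.07 and 5.27 FPKM (log2 ratio -0.77).

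Over all 14 relatives of the members, 10 loci had a mean of at least 1 FPKM. *Nuak1* and *Ptpn21* were lower by at least 1.5-fold and 0 were higher, beside 3.30% and 4.44% of all loci. The median log2 ratio of the relatives was -0.05. By direction alone, 5 of the 10 were lower and 5 were higher.

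A further 24 YAP-TEAD targets were described for comparison, of which 22 had a mean of at least 1 FPKM. Of these, 16 were lower and 6 were higher, and the median log2 ratio was -0.11. Lower by at least 1.5-fold were 5, and 1 was higher, beside 3.30% and 4.44% of all loci. *Thbs1*, encoding the matrix protein thrombospondin, had 114.9 and 72.4 FPKM (log2 ratio -0.67), and *Tgfb2*, a growth factor gene, had 32.3 and 17.2 FPKM (-0.91). *Myof*, encoding the membrane protein myoferlin, had 5.79 and 2.83 FPKM (-1.01), and *Gadd45a*, a DNA damage response gene, had 5.71 and 2.80 FPKM (-1.003). *F3*, encoding tissue factor, had 2.47 and 1.39 FPKM (-0.79). *Igfbp3*, encoding a binding protein of insulin-like growth factors, was the gene higher by that much, at 15.4 and 30.9 FPKM (0.996). The other 16 lay within 1.5-fold.

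The Hippo pathway genes stayed closer to equal. Of 26 loci that averaged 1 FPKM or more, 16 were lower and 10 higher. The median log2 ratio was -0.05. *Wwtr1*, encoding the YAP paralog TAZ, had 24.5 and 22.4 FPKM. Among the TEAD genes, *Tead2* was the highest, at 170.4 and 156.1 FPKM, *Tead3* had 24.8 and 19.996 FPKM, and *Tead4* had 2.74 and 2.28 FPKM. *Tead1* had 2 loci with the same ends, at 18.3 and 19.0 FPKM and at 1.29 and 2.17 FPKM (log2 ratio 0.71). At least 1.5-fold lower was *Wwc1*, a scaffold gene of the pathway, at 8.995 and 5.36 FPKM (-0.74). At least 1.5-fold higher were the atypical cadherin gene *Fat4*, at 8.61 and 14.4 FPKM (0.74), and the smaller *Tead1* locus. Over all loci, 3.30% were lower and 4.44% higher by that much.

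**Figure D4:**
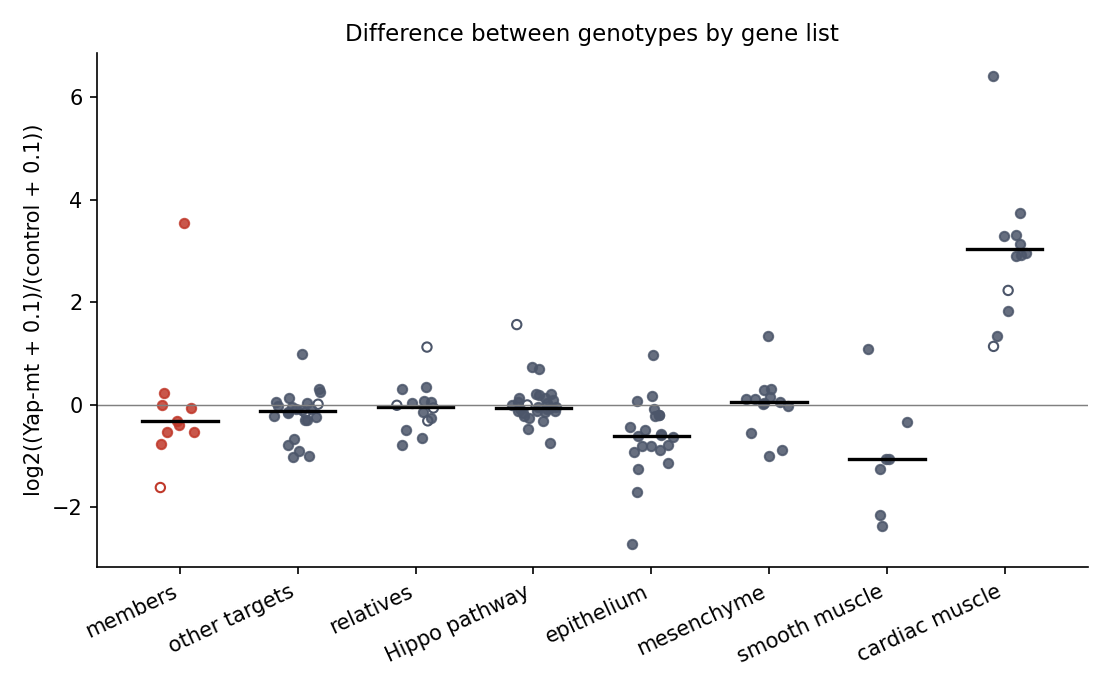
Log2 ratio of *Yap* mutant over control (y axis, 0.1 FPKM added) for each locus of 8 gene lists, with the members in red. Filled points have a mean of at least 1 FPKM, open points do not, and the bar is the median of the filled points. The members' median is -0.31, beside -0.11 for other targets, -0.05 for relatives and for the Hippo pathway, and -0.60 for epithelium.

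The lower values of the members stood beside lower values of the epithelium. Of the 22 epithelial loci, 19 were lower in *Yap* mutants, 12 of them by at least 1.5-fold, beside 3.30% of all loci. The list summed to 729.3 FPKM in control and 530.9 FPKM in mutant lungs. The list was uneven, and 9 of its loci lay within 1.5-fold. Its log2 ratios ran from -2.71 for *Shh* to 0.97 for *Sftpc*, both named after their values were seen. The Cre insertion takes the place of 1 *Shh* copy. Of the 7 smooth muscle markers, 6 were lower, and the list summed to 288.9 and 147.8 FPKM. The exception, named after its values were seen, was the desmin gene *Des*, which is also used by heart and skeletal muscle, at 17.6 and 37.7 FPKM (log2 ratio 1.10). In bulk lung RNA, fewer cells of a type and less RNA per cell cannot be told apart. Set against the epithelial median, the members' median became 0.29. Of the 8 members with a lower value, only *Nuak2* (-1.01) and *Cyr61* (-0.16) remained below 0. This subtraction treats each whole-lung value as if it came from epithelium only. The epithelial median also depends on the genes listed. *Sox2* (-1.69) and *Etv5* (-1.26) lay below it, and *Epcam* (-0.43) and *Cdh1* (-0.20) above it, named with their values known. The paper reports reduced *Shh* and *Sox2* in these mutants. The part of the epithelial and smooth muscle share in the members' values was not tested.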

How the data were processed

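RNA-Seq of lungs at 12.5 *dpc* (3 control and 3 *Yap* mutant libraries) was used. Per the labels and study methods, RNA was column-purified, libraries were stranded and paired-end, and the submitters' processing notes name TopHat, Cuffdiff and mm10, with no versions. Alignment and comparison ran on the Maverix platform. The authors deposited 2 tables with 1 FPKM value per genotype and locus. The unit was taken from the Cuffdiff layout, since the header does not name it. Fold changes and p-values of the authors' own comparison are also in these tables and were not used. Columns of other samples numbered 0. Depth per library is unknown.

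Log2 ratios used a pseudocount of 0.1 FPKM, and shares were taken over 12716 loci averaging 1 FPKM or more, 9 of them members. A difference of 1.5-fold was counted, with no test. Locus starts in the tables count from 0, so 1 was added; 6 of the 10 member loci then started at the RefSeq gene start on GRCm38. Of the members, 8 were in the second table too, and 0 of their values differed by over 1%. RefSeq promoter windows (GRCm38.p6) matched 8 members, *Cyr61* through its current symbol *Ccn1*. Protein sequences were not used here.

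Named were the members, their relatives, *Yap1*, *Wwtr1*, the TEAD genes, other targets and Hippo genes past 1.5-fold, the 3 highest genes of each marker list and sex-linked genes. The result of 1 further marker list is not reported here. The members and lists were chosen with earlier results of these data known. Counting was tested on simulated 2-fold changes with small noise, which checks the counting and not the spread between real libraries. Alternatives changed the pseudocount, scaling, filter, fold, multi-gene loci and source table. Python 3.11.15 with numpy 2.4.6, pandas 2.3.3 and matplotlib 3.10.9 was used.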

Additional observations from a re-analysis of the deposited data

How the results depend on the processing

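No paired analysis was possible because each genotype has 1 value per locus, and for the same reason no library could be left out. Setting both groups to the same sum of FPKM, centring on the median of all loci, using only loci with a single symbol, and taking the values of the second table left the members' counts and median within 1.5 times or 0.1 on the log2 scale of those given, as did both other pseudocounts. Against the epithelial median, 0 members were lower and 3 higher by at least 1.5-fold (median 0.29). Of the other targets 0 were lower and 6 higher (median 0.48). As deposited, only *Ankrd1* of the members and *Igfbp3* of these targets were higher by at least 1.5-fold. This setting subtracts -0.60 from every log2 ratio, so a locus with equal values in both groups already counts as 1.5-fold higher. The share of all loci past the fold was not computed for it. With no filter on low values, 2 members (*Nuak2* and *Cyr61*) were lower, and over all loci 1016 were lower and 1553 higher. With a mean of at least 5 FPKM, 182 loci were lower and 217 higher, and 2 other targets were lower. The share of loci past the fold was not computed under either filter. These counts therefore cannot be set beside the 3.30% and 4.44% found with a mean of at least 1 FPKM. At 20% lower or 25% higher, 4 members were lower, and 865 loci were lower and 1225 higher. At 2-fold, 0 members were lower, 2 other targets were lower and 0 higher, and 163 loci were lower and 274 higher. Against that median *Ajuba*, *Amotl2*, *Ptpn14*, *Ctgf*, *Amot* and *Amotl1* also turned from below to above 0, as did the medians of the members, other targets, relatives and Hippo genes, and *Amotl1* turned with equal sums too. In all, 58 of 281 recomputed values moved. With depth and library values unknown, small differences such as that of *Amot* could not be resolved.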

Other observations

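The TEAD word was also counted before the starts of genes outside the members. It was found for 3 of 16 other targets with a window (*Crim1*, *Flna* and *Edn1*), for 3 of 10 relatives (*Wtip*, *Ankrd23* and *Ptpn21*), for 9 of 22 Hippo pathway genes, for 4 of 12 cardiac muscle genes and for 2 of 15 epithelial genes, beside 12.8% of the 9923 genes with a window and a mean of at least 1 FPKM. *Wtip* held 4 copies. The other targets lower by at least 1.5-fold that had a window, *Myof*, *F3*, *Gadd45a* and *Tgfb2*, held 0 copies each in these 250 bases. The median GC content of the windows was 57.0% for the members and 60% for genes with a mean of at least 1 FPKM. These genes were named after their values were seen.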
